A study of Rattus norvegicus with 20 samples.

Results

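Small leucine-rich proteoglycans (SLRPs) are secreted proteins of the extracellular matrix (ECM), and the genes described here are 8 of them, namely Bgn, Dcn, Aspn, Fmod, Lum, Prelp, Omd and Ogn. They were selected by symbol from 32402 Ensembl genes measured in the supraoptic nucleus (SON) of the rat hypothalamus. No threshold on their values was used, but earlier results of these data were known when they were chosen. Ogn is listed under 2 Ensembl identifiers, so the 8 symbols stand for 9 identifiers, and 7 of the 8 genes had a mean normalized count of at least 10 and were tested. Poly(A) RNA-seq was performed on the SON of 20 male Wistar Han rats, 5 in each of 4 groups: adult euhydrated (adult EH), adult dehydrated (adult DH), aged euhydrated (aged EH) and aged dehydrated (aged DH). Adult rats were 3 months old and aged rats 18 months old, EH rats drank freely, and the labels name no other treatment. For DH the labels give 2 days without water. The methods describe a longer period, and which applied is not settled here. Each library came from bilateral punches centred on the SON, which can hold adjoining tissue and the overlying meninges. The methods state that adult and aged animals were handled side by side, with joint punching, RNA isolation and sequencing.

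SLRPs carry leucine-rich repeats and, in most members, chondroitin, dermatan or keratan sulfate chains. They bind collagen fibrils and set fibril spacing and diameter, and several also bind growth factors of the TGF-beta family or innate immune receptors. In the brain their transcripts are best known from fibroblasts of the meninges and of vessel walls, rather than from neurons. Class I members are Bgn, Dcn and Aspn, class II members are Fmod, Lum, Prelp and Omd, and Ogn belongs to class III.

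The values are read counts divided by a size factor, which corrects for the depth of each library, and are called normalized counts. Reads counted on genes ranged from 24268398 to 30348118 per rat. For levels shown per rat, reads were scaled over all 20 libraries together. Differences were tested with the scaling of the authors, which is separate for each comparison, except for aged DH against adult DH. The authors gave no values for that comparison, so recovered reads were scaled over its own libraries. LFC denotes the log2 fold change on the scale of log2(normalized count + 1), and a gene was called a DEG (differentially expressed gene) when its limma p-value, adjusted by the Benjamini-Hochberg method over all genes tested, was below 0.05. The neuropeptide genes that mark the SON were abundant in every rat, with Avp (vasopressin) between 115638 and 319407 and Oxt (oxytocin) between 72409.9 and 144991 normalized counts. In bulk tissue, fewer cells of a type and less RNA per cell cannot be told apart.

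Bgn, Fmod and Lum were expressed at lower levels in the aged than in the adult SON, in EH rats and again in DH rats, which are different animals. Dcn and Prelp were lower in aged rats as well, but passed the test in DH rats only, and the difference between the hydration states did not itself pass. DH altered none of the 7 tested genes past the threshold at either age. Aspn and Omd were measured at low counts and Ogn at the edge of detection. The plot of levels per rat shows each of the 7 tested genes in all 4 groups.

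**Figure D1:**
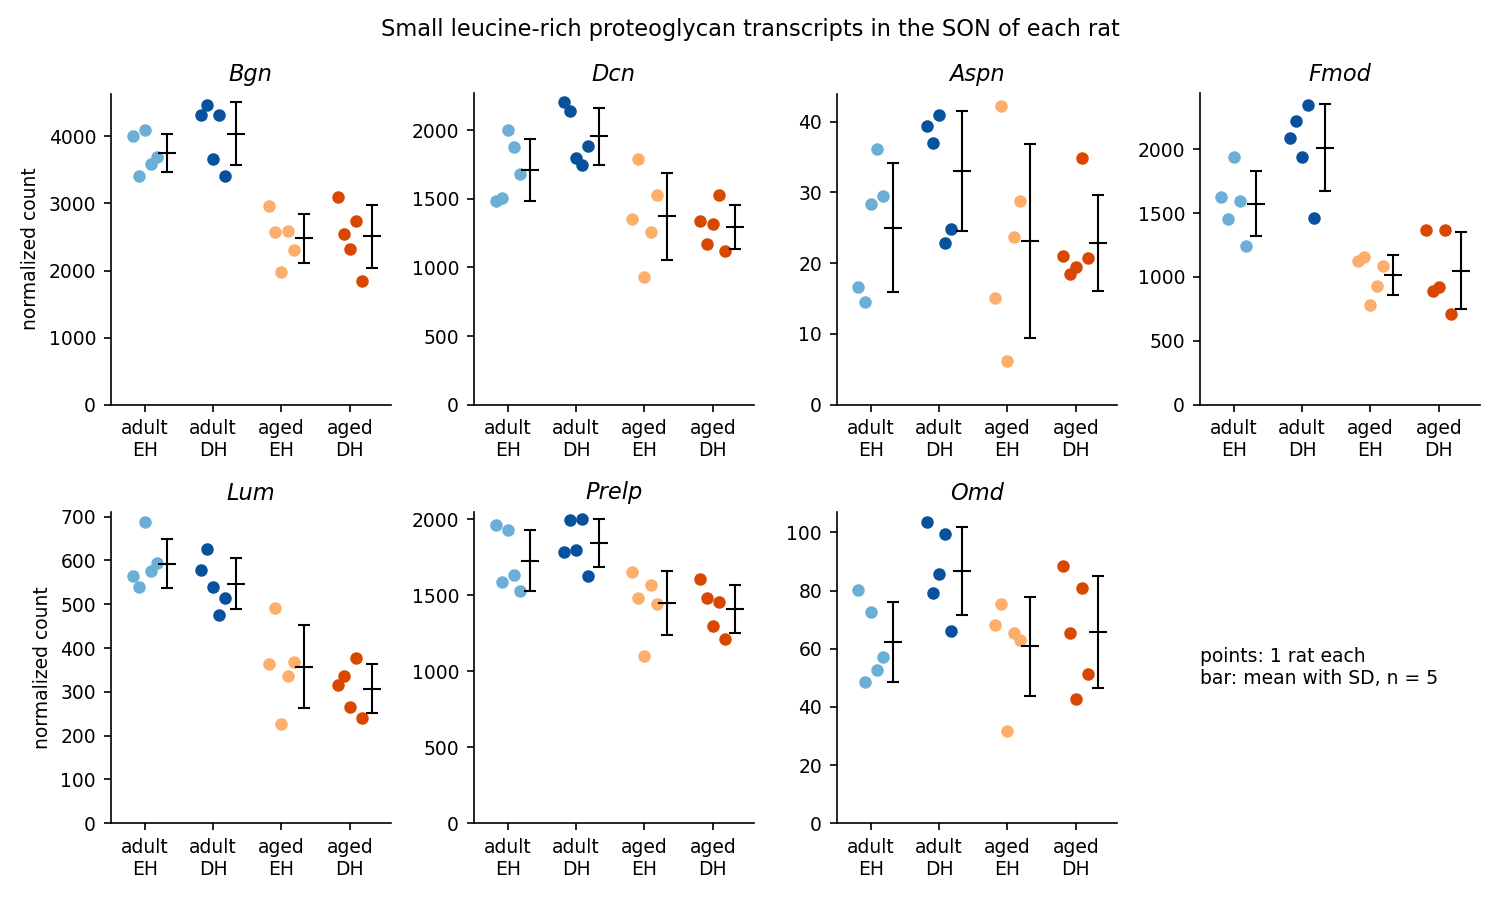
Normalized counts (y axis, linear from 0, scaled over all 20 libraries) of the 7 tested SLRP genes in adult EH, adult DH, aged EH and aged DH rats. Each point is 1 rat and the bar is the mean with SD (n = 5), and for Bgn, Fmod and Lum every aged EH rat sits below every adult EH rat.

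Sequences upstream of the transcription start were at hand for 5 of the 8 genes, namely Aspn, Fmod, Lum, Omd and Ogn, in the RefSeq annotation of the GRCr8 assembly. Those of Fmod and Lum are shown because they were the members with the largest decreases that passed the test in both ageing comparisons. Each run holds the 250 bases before the start, 5' to 3' on the plus strand, at chr13:48045317-48045566 for Fmod and chr7:34245456-34245705 for Lum. Capitals mark a CCAAT box (CCAAT or its complement ATTGG) or a GC box (GGGCGG or its complement CCGCCC).
Fmod: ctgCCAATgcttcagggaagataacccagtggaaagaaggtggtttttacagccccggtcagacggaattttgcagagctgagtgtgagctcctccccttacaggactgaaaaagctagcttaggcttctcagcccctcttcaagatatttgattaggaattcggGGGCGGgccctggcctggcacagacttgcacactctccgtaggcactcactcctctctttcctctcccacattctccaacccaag
Lum: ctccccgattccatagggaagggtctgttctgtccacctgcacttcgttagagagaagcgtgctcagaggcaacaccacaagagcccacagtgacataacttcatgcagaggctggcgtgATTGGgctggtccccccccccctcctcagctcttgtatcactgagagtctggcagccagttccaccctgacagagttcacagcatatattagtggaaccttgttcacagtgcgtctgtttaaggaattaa
In Fmod, the CCAAT box began at position -247 and the GC box at position -85, and in Lum the ATTGG form began at position -130. Of 33469 rat promoters of 300 bases (250 before to 50 after the start), 37.5% held a CCAAT box and 33.1% a GC box, so neither is rare. The letters of a SMAD element (CAGACA or TGTCTG, in 21.1% of promoters) and of an AP-1 site (TGANTCA, in 7.33%) were not in the window of any of the 5 genes. A TATA box (TATAAA or TTTATA, in 14.2%) and a GGAATG element (or CATTCC, in 14.2%) were found in Ogn only.

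Bgn (ENSRNOG00000055962) encodes biglycan, a class I proteoglycan that binds collagens and, once released from the matrix, activates Toll-like receptors. Normalized counts were 3999, 3412, 4091, 3582 and 3686 in adult EH rats and 2963, 2569, 1972, 2586 and 2301 in aged EH rats. All aged EH rats lay below all adult EH rats. With 15369 genes tested, 5.99% were ageing DEGs and 3.30% were ageing DEGs with lower expression, and Bgn was among the latter (LFC -0.61, SE 0.087, adjusted p = 0.0013), which is 1.53-fold lower. In DH rats the counts were 4316, 4472, 3667, 4322 and 3410 at the adult age and 3095, 2548, 2322, 2733 and 1850 at the older age. Again the groups did not overlap. The LFC was -0.70 (SE 0.12, adjusted p = 0.0026), 1.62-fold lower, in a comparison in which 10.8% of 15278 genes were called and 5.85% were called lower. DH left Bgn within the spread of the rats, with an LFC of 0.10 (95% interval -0.06 to 0.26) in adult and 0.01 (-0.25 to 0.27) in aged rats.

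Fmod (ENSRNOG00000003183) encodes fibromodulin, which binds fibrillar collagen and takes part in the cross-linking and growth of fibrils. Adult EH rats had normalized counts of 1627, 1452, 1939, 1594 and 1246, and aged EH rats had 1126, 1156, 777.5, 932.8 and 1085. The lowest adult rat was above the highest aged rat. The LFC was -0.63 (SE 0.12, adjusted p = 0.0073). Among DH rats the adult values were 2090, 2223, 1939, 2343 and 1462, and the aged values were 1368, 887.5, 923.7, 1364 and 707.5. The groups were again apart, by an LFC of -0.97 (SE 0.17, adjusted p = 0.0039) or 1.95-fold, the largest SLRP difference in any of the comparisons made here. In adult rats DH was accompanied by an LFC of 0.35 (95% interval 0.08 to 0.62) that missed the threshold (adjusted p = 0.083), whereas in aged rats the LFC was 0.02 (-0.34 to 0.37). Without adult EH replicate 4 or without adult DH replicate 5, Fmod passed in the adult comparison, with an LFC of 0.43 (adjusted p = 0.037) and 0.46 (adjusted p = 0.013), respectively.

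Lum (ENSRNOG00000004610) encodes lumican, a keratan sulfate proteoglycan that governs fibril spacing, most visibly in the cornea. Its normalized counts were 565.5, 540.3, 687.6, 575.7 and 594.8 in adult EH rats and 364.6, 492.5, 226.5, 336.5 and 368.3 in aged EH rats. No aged rat reached the lowest adult rat, although one aged rat, replicate 2, came within reach of it. The LFC of -0.77 (SE 0.15, adjusted p = 0.0092) was a 1.70-fold decrease. Adult DH rats had 578.2, 626.7, 540.1, 475.7 and 514.3, against 316.1, 336.8, 264.9, 378.2 and 240.8 in aged DH rats. The separation was complete here too (LFC -0.84, SE 0.11, adjusted p = 0.00088), a 1.79-fold decrease. Lum was the only tested SLRP gene with an LFC below 0 after DH at both ages, at -0.12 (95% interval -0.29 to 0.05) in adult and -0.19 (-0.56 to 0.17) in aged rats, and neither value passed the test.

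Dcn (ENSRNOG00000004554) encodes decorin, a class I proteoglycan that sequesters TGF-beta and antagonises receptor tyrosine kinases such as Met. In EH rats the adult counts were 1484, 1504, 2000, 1876 and 1678 and the aged counts were 1352, 1788, 933.6, 1260 and 1526. These groups overlapped, and the LFC of -0.34 (95% interval -0.64 to -0.04) was not called (adjusted p = 0.18), and was -0.21 without aged EH replicate 4. In DH rats they were 2204, 2142, 1794, 1745 and 1885 at the adult and 1337, 1174, 1313, 1529 and 1122 at the older age. Here every aged rat was below every adult rat, with an LFC of -0.60 (SE 0.084, adjusted p = 0.0011). Prelp (ENSRNOG00000003120), which encodes a protein that anchors basement membranes to connective tissue, gave a similar picture. Its adult EH counts were 1963, 1588, 1928, 1629 and 1527, against 1653, 1481, 1098, 1565 and 1442 in aged EH rats. They overlapped (LFC -0.26, 95% interval -0.48 to -0.05, adjusted p = 0.15, and LFC -0.17 without aged EH replicate 4). Adult DH rats had 1785, 1994, 1797, 2001 and 1627 and aged DH rats 1607, 1480, 1296, 1457 and 1211, without overlap (LFC -0.39, SE 0.076, adjusted p = 0.0067). After DH, the LFC of Dcn was 0.20 in adult rats (95% interval 0.0094 to 0.39, adjusted p = 0.17) and -0.06 in aged rats (-0.35 to 0.23). That of Prelp was 0.10 (-0.07 to 0.26) in adult and -0.03 (-0.24 to 0.18) in aged rats.

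Omd (ENSRNOG00000039560), encoding osteomodulin, and Aspn (ENSRNOG00000015410), encoding asporin, a relative of decorin that inhibits TGF-beta, were present at low counts, with wide spread between rats. Omd had a mean of 62.2 ± 13.7 in adult EH, 86.8 ± 15.2 in adult DH, 60.8 ± 17.0 in aged EH and 65.8 ± 19.3 in aged DH rats (SD, n = 5). Its LFC with age was -0.07 (95% interval -0.55 to 0.41) in EH rats and -0.43 (-0.85 to -0.0027, adjusted p = 0.18) in DH rats. After DH in adult rats the LFC of Omd was 0.48 (0.12 to 0.84, adjusted p = 0.077), the largest positive value of any tested SLRP gene in that comparison. It missed the threshold with all rats, and passed it without adult EH replicate 1 (LFC 0.58, adjusted p = 0.044) or without adult DH replicate 5 (LFC 0.57, adjusted p = 0.045). For Aspn the means were 25.03 ± 9.14, 33.02 ± 8.49, 23.2 ± 13.7 and 22.9 ± 6.81 in the same order of groups (SD, n = 5), which overlapped in every comparison. The LFCs of Aspn were -0.27 and -0.51 with age and 0.43 and 0.18 with DH, and none was called.

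Ogn, encoding osteoglycin (mimecan), was barely detected. Its main identifier (ENSRNOG00000029792) collected 4, 2, 5, 3 and 1 reads in adult EH rats, 6, 3, 2, 10 and 1 in adult DH, 1, 5, 1, 0 and 3 in aged EH and 7, 2, 1, 5 and 1 in aged DH rats. A count of 0 allows up to 3 reads in that library, from counting error alone, so the groups cannot be ranked. The other identifier (ENSRNOG00000047786) had 1 read in all 20 libraries. Ogn was left out of the tests. In the GRCr8 annotation Ogn, Omd and Aspn each overlap Cenpp, and Aspn also overlaps another locus. The strand setting of the read counting is not given in the sources used here, so the low counts of these 3 genes are uncertain. Dcn, Fmod and Prelp each overlap 1 uncharacterised locus there, with the same limit.

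Seen as a group, the tested SLRP genes all had an LFC below 0 with age when all rats were used. In EH rats the LFC was below 0 for 7 of 7 genes (49.9% of all tested genes were below 0), with a median of -0.34 against 0.00033 over all genes. There, 3 of the 7 were called, all lower, while 5.99% of all genes were called and 3.30% were called lower. Without aged EH replicate 4, 5 of the 7 were below 0 and the median was -0.21, without aged EH replicate 2 the median was -0.54, and without adult EH replicate 1, 6 of the 7 were below 0. The 3 called genes were also those without overlap between the ages, which held for 3.43% of all genes in that direction. In DH rats the LFC was below 0 for 7 of 7 genes (49.5% of all), and the median was -0.60 against 0.0019. Of the 7, 5 were called lower and did not overlap. Among all genes 10.8% were called, 5.85% were called lower, and 4.53% did not overlap in that direction. These ageing comparisons share no rats, but each shares rats with the DH comparisons. In the adult DH comparison, where 12.7% of 15280 genes were called, 0 of the 7 were called and Lum alone had an LFC below 0 (52.2% of all genes did), with a median of 0.20 against -0.0073 over all genes. In aged rats, where 7.29% of 15346 genes were called, 0 of the 7 were called, 3 of them were below 0 (51.0% of all genes), and the median was 0.010 against -0.0030. That count depended on single rats, and was 7 of 7 (median -0.13) without aged EH replicate 4 and 2 of 7 (median 0.11) without aged DH replicate 6.

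Whether DH acted differently on aged and adult rats was tested as a difference of LFCs, which equals the effect of age in DH rats less that in EH rats. It was below 0 for 7 of 7 genes (50.5% of all genes), and for 5 of 7 without aged EH replicate 2 or without aged DH replicate 6, but was not called for any. The largest values were -0.36 (95% interval -1.02 to 0.29) for Omd, -0.34 (-0.81 to 0.14, adjusted p = 0.68) for Fmod and -0.26 (-0.63 to 0.11, adjusted p = 0.68) for Dcn. For Prelp it was -0.13 (-0.41 to 0.16). The smallest were -0.09 (-0.42 to 0.24) for Bgn and -0.08 (-0.50 to 0.35) for Lum. No gene of the 15326 tested was called by limma in this comparison, and 1522 (9.93%) had an unadjusted p under 0.05, while edgeR called 0 and DESeq2 called 55 genes on whole reads. Intervals of this width do not show that the ages respond alike.

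**Figure D2:**
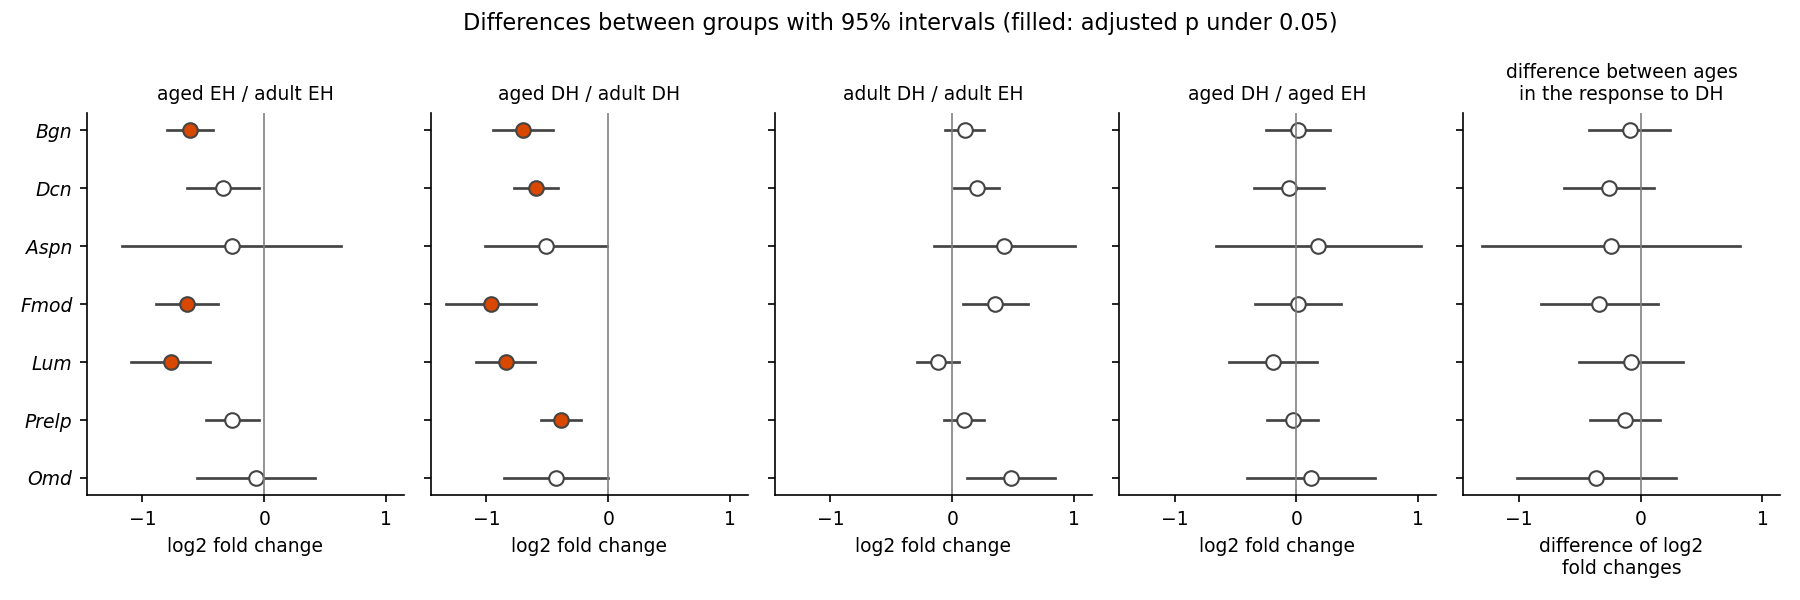
Log2 fold changes (x axis, in the last panel the difference of 2 log2 fold changes) of the 7 tested SLRP genes, with 95% intervals from limma, in 5 comparisons. Filled points passed an adjusted p of 0.05: Bgn, Fmod and Lum in EH rats, the same 3 with Dcn and Prelp in DH rats, and none in the other 3 panels.

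The members also varied together among rats of the same group. Over 20 rats, after removal of the group means, the correlation of log2 values was above 0 in all 21 pairs of members, with a median Pearson's r of 0.64 and a range from 0.30 (Bgn with Aspn) to 0.87. In 13 of the 21 pairs both Pearson's r and Spearman's rho passed a permutation test with adjustment over all 56 relations computed. The closest relations fell into 2 sets, which were set apart after the values were seen, with r of 0.75 to 0.87 within and 0.30 to 0.72 across them. Bgn varied with Prelp (r = 0.87), Fmod (r = 0.83) and Omd (r = 0.79), while Dcn varied with Lum (r = 0.87) and Aspn (r = 0.87), and Lum with Aspn (r = 0.79). The sets were not separate. Across them, Lum with Omd (r = 0.72), Bgn with Lum (r = 0.64), Fmod with Lum (r = 0.63) and Dcn with Fmod (r = 0.61) passed in both measures. Other pairs across the sets did not pass in both. Among these, Bgn with Dcn had r = 0.49 (rho = 0.48, adjusted permutation p = 0.10 and 0.11), which dropped to 0.22 without the 2 rats farthest from the median of Bgn. All genes of a rat share its library and punch, so these values are descriptions of shared variation between samples.

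The 6 relations named above within the sets passed in both measures. They were picked for their high r, so their passing is no separate evidence for the 2 sets. Spearman's rho was 0.85 for Bgn with Prelp, 0.82 for Bgn with Fmod and 0.75 for Bgn with Omd, with adjusted permutation p from 0.0019 to 0.0054, and r was 0.83, 0.74 and 0.75 without the 2 rats farthest from the median. For Dcn with Lum, Dcn with Aspn and Aspn with Lum, rho was 0.80, 0.76 and 0.64, with adjusted permutation p from 0.0025 to 0.018. Without the 2 farthest rats, r was 0.71, 0.71 and 0.50 in these 3 pairs.

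**Figure D3:**
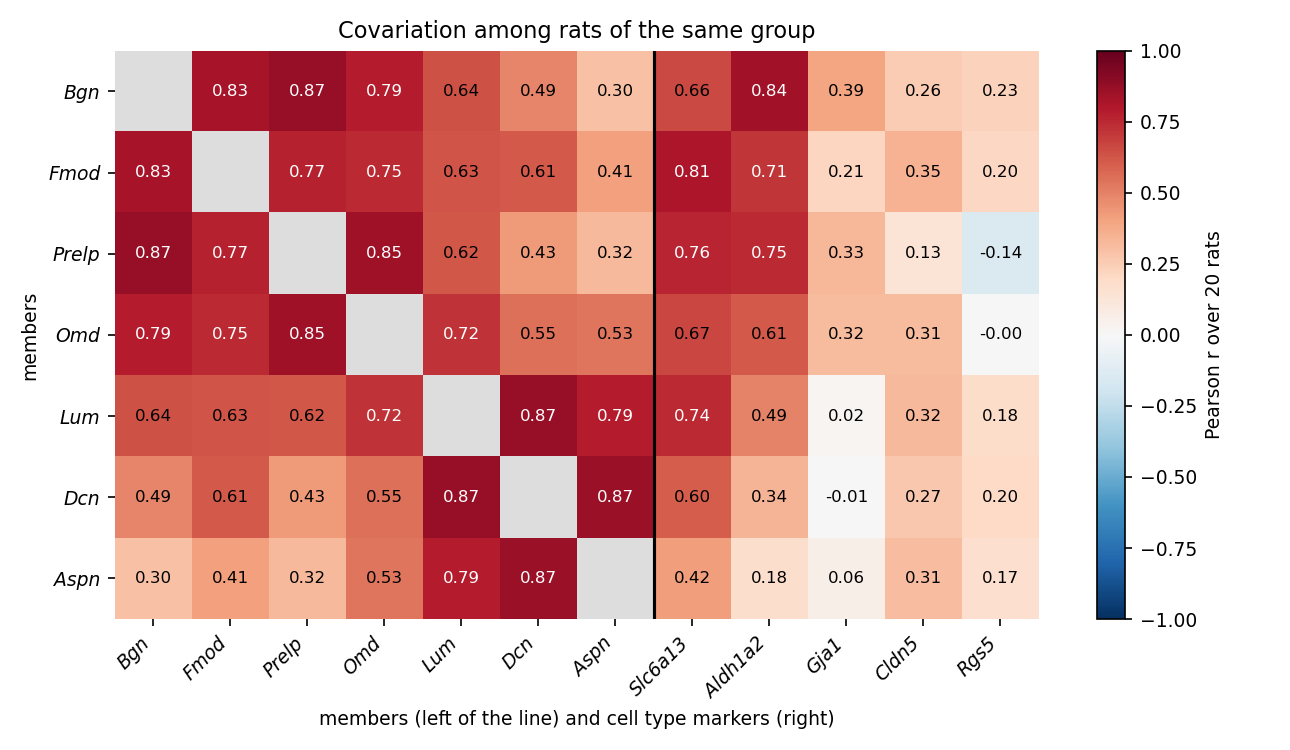
Pearson's r (colour and printed value, over 20 rats, group means removed) between pairs of SLRP genes and between each SLRP gene and 5 cell type markers. Members are ordered by hand, and the darkest cells join Bgn, Fmod, Prelp and Omd, and Lum, Dcn and Aspn.

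The order of these genes along the GRCr8 assembly was compared with that pattern. Dcn and Lum are adjacent, followed by Kera and Epyc, Prelp and Fmod are adjacent beside Optc, and Ogn, Omd and Aspn follow each other with Ecm2 close by. The neighbours varied together to different degrees, with r = 0.87 for Dcn and Lum, 0.77 for Prelp and Fmod and 0.53 for Omd and Aspn. Bgn has no SLRP gene beside it, and its r with Prelp was as high as that of the adjacent Dcn and Lum. Of 10 further SLRP and related genes on the list, 9 had an identifier and 6 passed the filter (Chad, Chadl, Ecm2, Nyx, Optc and Tsku). In both ageing comparisons and in aged DH 0 of the 6 were called, where 5.99%, 10.8% and 7.29% of all genes were called. A list of 6 genes cannot set a count of 0 apart from such shares. The LFC was below 0 for 6, 4 and 3 of the 6 genes, respectively, with medians of -0.21, -0.13 and 0.06. Tsku, encoding tsukushi, was the only one called in adult DH (LFC -0.24, adjusted p = 0.039), where 12.7% of all genes were called. Kera and Epyc, the neighbours of Lum, were at or near 0 reads.

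Fibroblast markers moved with the SLRP genes. Over all genes, 5.99% were called with age in EH rats and 10.8% in DH rats. Of 16 markers of meningeal fibroblasts, 8 were lower in aged EH rats and 10 in aged DH rats, and none was higher, with a median LFC of -0.47 and -0.64, respectively. They included Aldh1a2, a retinoic acid synthesising enzyme of the meninges (LFC -0.67 and -0.84), and Tbx18 (-0.59 and -0.79). The summed normalized count of the 16 genes, each of which was detected, ranged from 11723.1 to 15514.5 in adult EH, 13228.8 to 16225.6 in adult DH, 7228.2 to 11383.0 in aged EH and 7293.0 to 11033.1 in aged DH rats. Neither of the aged ranges reached the adult range of the same hydration state. In DH, 1 marker rose and 1 fell in adult rats (Slc6a13, LFC 0.40, and Gjb2, LFC -0.40) and none passed in aged rats. In adult rats that was 12.5% of the markers, near the 12.7% of all genes. Whether the SLRP differences follow the share of meningeal tissue in the punches was not tested.

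Among rats of the same group, 9 of 35 relations between an SLRP gene and a cell type marker passed by Pearson's r, all of them with the fibroblast markers Slc6a13 or Aldh1a2, and 8 passed by Spearman's rho. Bgn with Aldh1a2 had r = 0.84 (rho = 0.84) and Fmod with Slc6a13 r = 0.81 (rho = 0.72), with adjusted permutation p from 0.0015 to 0.0093, and r was 0.76 and 0.75 without the 2 rats farthest from the median. For the others, r lay between -0.14 and 0.39 for all 21 relations with Cldn5 (endothelium), Rgs5 (pericytes) and Gja1 (astrocytes), and none of them passed the test. Aged EH replicate 4 had the lowest value of its group for 7 of the 7 tested SLRP genes, and the lowest fibroblast marker sum of its group (7228.2). Without it, Bgn, Fmod and Lum were still called in EH rats (LFC -0.53, -0.54 and -0.61, adjusted p = 0.0011, 0.012 and 0.0058). Aged DH replicate 6 was lowest in 5 of the 7 genes, and likewise had the lowest marker sum of its group (7293.0). Adult DH replicate 5 was lowest in 4 and also had the lowest sum (13228.8). In adult EH, replicate 6 had the lowest sum (11723.1) but was lowest in 2 genes, while replicate 2 was lowest in 4. Adult EH replicate 4 and aged DH replicate 1 were each highest in 4 genes and in marker sum. Aged EH replicate 2 was highest in 5 genes, but replicate 1 had the highest sum (11383.0).

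Markers of other cell types were called in both directions with age. Over all genes, 5.99% were called with age in EH rats and 10.8% in DH rats. Lists this short cannot set a single called marker apart from these shares. Of 9 pericyte markers 2 were lower in aged EH and 4 in aged DH rats (median -0.13 and -0.19), among them Pdgfrb (LFC -0.28 and -0.46). Of 5 smooth muscle markers none was called in EH and 3 were lower in DH rats (Myh11, Des and Cnn1, LFC from -0.58 to -0.45), and of 8 endothelial markers 1 was lower in EH (Cdh5, LFC -0.35) and none in DH rats. Of 8 microglial markers 3 were higher in each (median 0.28 and 0.33), among them Cx3cr1 and P2ry12. Of 6 astrocyte markers 2 and 3 were lower, and of 6 oligodendrocyte markers 4 and 1 were lower. Of 4 macrophage markers of the brain borders, Cd163 was higher in aged EH (LFC 0.61) and Mrc1 lower in aged DH rats (LFC -0.86). None of 5 neuronal and 5 blood markers was called in either ageing comparison. Of 5 ependymal and choroid plexus markers 0 and 2 were lower (Kcnj13 and Ttr, LFC -0.67 and -2.15).

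The collagens that SLRPs bind were lower with age. Of 11 tested genes of the collagen list (fibril-forming, type VI and fibril-associated collagens), 8 were lower in aged EH and 11 in aged DH rats. Their medians were -0.53 and -0.67, and 5.99% and 10.8% of all genes were called in these comparisons. Col1a1 and Col3a1, the major fibrillar collagen genes of soft tissue, were the lowest, with LFCs of -1.66 and -1.34 in EH rats (adjusted p = 2.8e-05 and 9.3e-05) and both -1.80 in DH rats (adjusted p = 1.5e-06 and 9.4e-07). With DH, the called collagen genes were Col6a1 (LFC 0.25) and Col5a1 (LFC 0.31) in adult rats and Col11a1 (LFC -0.71) in aged rats. These were 18.2% and 9.09% of the 11 tested genes, against 12.7% and 7.29% of all genes. Of 23 genes for fibril assembly, 11 were lower in each ageing comparison and none was higher (median -0.29 and -0.38). Adamts2, which trims procollagen (LFC -0.67 and -0.76), Pcolce, which enhances that step (LFC -0.88 and -0.84), and Serpinh1, the collagen chaperone (LFC -0.50 in EH rats), were among them. In adult DH rats 4 of the 23 were higher and 2 lower (26.1% called), with Plod3, a collagen lysyl hydroxylase, at LFC 0.49. Plod3 was also the only one called in aged DH rats (LFC 0.38, 4.17% of 24 tested).

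**Figure D4:**
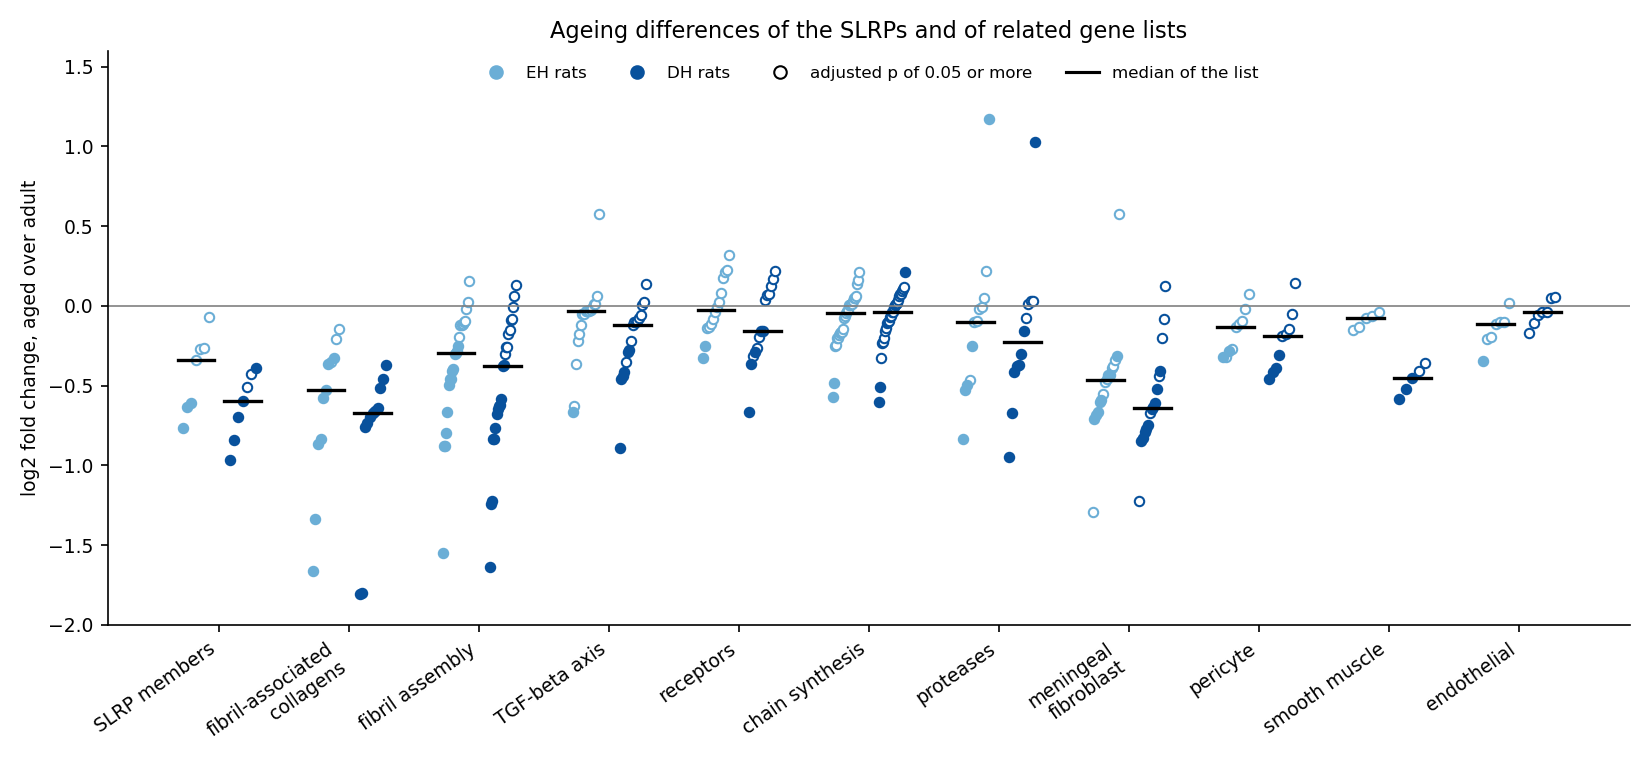
LFC of aged over adult rats (y axis) for each tested gene of the SLRP members and of 10 gene lists, in EH rats (light) and DH rats (dark), where filled points passed an adjusted p of 0.05 and bars are medians of a list. The median was -0.34 and -0.60 for the SLRP members, -0.53 and -0.67 for the collagens and -0.47 and -0.64 for the fibroblast markers. The axis label for fibril-associated collagens stands for the whole collagen list, which also holds fibril-forming and type VI collagens.

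Growth factors and receptors that SLRPs engage were called in adult DH as well as with age. Of the 17 genes of the TGF-beta axis, 5.88% were called with age in EH rats (5.99% of all genes) and 35.3% in DH rats (10.8%). With DH, 23.5% were called in adult rats (12.7% of all genes) and 5.88% in aged rats (7.29%). Both shares of 5.88% lay near those of all genes. For the 14 receptors the shares were 14.3% and 28.6% with age, and 21.4% and 0% with DH in adult and aged rats. Among 17 genes of the TGF-beta axis, those higher in adult DH rats included Ccn2 (LFC 0.96), Ltbp2 (0.56) and Tgfb1 (0.25), and in aged DH rats Tgfb2 alone was called (LFC -0.15). With age, Bmp4 was lower in EH rats (LFC -0.66) and 6 of the 17 were lower in DH rats, among them Ltbp2 (-0.89) and Ltbp4 (-0.27). Of 14 receptors, Met, a receptor that decorin antagonises (LFC 0.79), Itgb1 (0.24) and Kdr (0.23) were higher in adult DH and none was called in aged DH rats. Kdr and Itgb1 were lower with age in EH rats (LFC -0.33 and -0.25), and these with Met (-0.67) and Lrp1 (-0.16) in DH rats. For no gene was the difference of these responses between aged and adult rats called.

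Genes that build or cut the SLRPs were called in both directions. Of the 27 chain synthesis genes, 7.41% were called with age in EH rats (5.99% of all genes) and 11.1% in DH rats (10.8%). With DH, 11.1% were called in adult rats (12.7% of all genes) and 11.1% in aged rats (7.29%). For chain synthesis these shares lay near those of all genes. Of the 12 proteases and inhibitors, 41.7% and 66.7% were called with age, and 25% and 8.33% with DH. Of 27 genes for the synthesis of glycosaminoglycan chains, Chst3 and Chst7, both sulfotransferases, were lower in aged EH rats (LFC -0.57 and -0.48), and Chst3 and Chst15 were lower and B3galt6 higher in aged DH rats (LFC -0.60, -0.51 and 0.21). Chpf and Chpf2, which polymerise chondroitin, rose with DH in adult (LFC 0.36 and 0.23) and in aged rats (0.34 and 0.26). Xylt2 was lower in adult DH (LFC -0.18) and B3gat3 higher in aged DH rats (LFC 0.16). Of 12 proteases and inhibitors, Mmp14, a membrane-bound metalloproteinase, was lower with age (LFC -0.83 and -0.95) together with Adamts4 (-0.53 and -0.30) and Bmp1 (-0.25 and -0.38), which is also on the assembly list, making 4 lower and 1 higher in EH and 7 lower and 1 higher in DH rats. The gene that was higher was Mmp9, a gelatinase that neutrophils also carry, at LFC 1.17 and 1.02 with age and 1.52 and 1.37 with DH in adult and aged rats. Timp3 (LFC 0.15) and Timp4 (0.22) were the others called higher in adult DH, and no other protease was called in aged DH rats.

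The genes outside the family whose variation among rats was closest to the mean of the 7 SLRP genes were Cald1 (r = 0.94), Vim (r = 0.93), Kank2 (r = 0.93), Cped1 (r = 0.93) and Cavin1 (r = 0.92), of 13093 genes with a mean of at least 50. Cald1 encodes caldesmon, Vim the intermediate filament protein vimentin and Cavin1 a coat protein of caveolae. With age, not all of these genes passed the test. Cavin1 was called lower in both ageing comparisons (LFC -0.32 and -0.46, adjusted p = 0.042 and 0.0070). Cald1 (LFC -0.38) and Kank2 (LFC -0.34) were called lower in DH rats only, and Vim and Cped1 in neither comparison. In DH rats Vim and Cped1 fell just short, at LFC -0.31 and -0.35 (limma adjusted p = 0.074 and 0.066). In EH rats their LFCs were -0.12 and 0.095. Cald1 (LFC 0.20) and Cped1 (LFC 0.36) were called higher in adult DH rats.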

How the data were processed

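Per the labels and the paper's methods, the authors aligned reads of stranded poly(A) libraries to the rat assembly Rn6 with STAR, counted them with featureCounts and deposited, for each of 3 comparisons, a signal per rat that is the read count divided by a DESeq2 size factor. The sources used here give no version of the aligner or counter. The deposited tables also hold the authors' own fold changes and p-values, which were not used.

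The SLRP genes, gene lists and rules were chosen with earlier results of these data known. Genes with a mean of at least 10 were tested by limma 3.58.1 (R 4.3.3) on log2(value + 1), two-sided, with trended moderation. The rule for named genes took every SLRP gene and, per list and comparison, up to 4 DEGs of lowest adjusted p and any gene that a count of 5 or fewer rests on. Whole reads were recovered from the deposited values of all 20 rats (100% of values whole within 0.1 read). In 3 aged libraries, aged EH replicate 2 and aged DH replicates 3 and 6, 1 read is worth close to 1 unit, which makes the step harder to check. There, 33.0% to 47.7% of values were whole at a step of 1, and only aged EH replicate 2 could be compared between tables, with 0 genes differing. Aged DH against adult DH rests in part on the other 2. Aged DH against adult DH, which has no deposited table, was tested on these reads after scaling, a choice made after the files were seen, as were edgeR 4.0.16 and DESeq2 1.42.0 outside adult DH. Permutations within groups numbered 100000. The functions were tested on simulated data. Rats are taken as separate animals from the labels. The methods describe group housing, with cages rather than single rats allotted to EH or DH. The labels do not name cages, so a cage shared by rats of a group could not be taken into account. No label pairs rats that share a replicate number between groups. Same-numbered rats correlated at -0.083 to 0.16 in their deviations from the group means, and rats of other numbers at -0.25 to 0.13. In adult and aged DH the highest same-number values (0.13 and 0.16) were above the highest others (0.12 and 0.11). With 4 or 5 same-numbered pairs per comparison, this cannot settle whether numbers pair rats. The reference at hand was of another assembly, so positions are given only for the RefSeq sequences. The value of 1 gene of the lists is not reported here.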

Additional observations from a re-analysis of the deposited data

Results flagged for a closer look

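A gap test (Dixon's, at the 95% level) was applied to the 5 rats of each group for each SLRP gene, in 32 groups of values, of which chance alone sets apart about 5%. It set apart 2 rats. Omd in aged EH replicate 4 was at 31.6 normalized counts, below the 63.03 to 75.5 of the other aged EH rats, and this rat was also the lowest of its group for the other 6 tested SLRP genes. Without it the LFC of Omd with age in EH rats was 0.15 in place of -0.07, and neither was called. Aspn in aged DH replicate 5 was at 34.9 normalized counts, above the 18.4 to 20.9 of the other aged DH rats. Dcn, which varied with Aspn among rats, was also highest in that rat (1529). The cause of either value was not tested.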

How the results depend on the processing

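Bgn, Fmod and Lum with age in EH rats, and these with Dcn and Prelp in DH rats, kept their direction and stayed below an adjusted p of 0.05 in 10 of 10 fits that left out 1 rat and in 10 of 10 other settings (pseudocount, filter, scaling, moderation, weights, replicate block, edgeR and DESeq2). Without single rats, uncalled LFCs changed sign with age in EH rats, in aged DH and for the difference between the ages, whereas with age in DH rats and in adult DH all 7 members kept their sign. With age in EH rats Aspn ranged from -0.54 to 0.11 and Omd from -0.16 to 0.15. For aged DH the ranges were -0.071 to 0.11 for Bgn, -0.19 to 0.044 for Dcn, -0.20 to 0.45 for Aspn, -0.091 to 0.15 for Fmod, -0.13 to 0.021 for Prelp and -0.095 to 0.26 for Omd. For the difference between the ages they were -0.17 to 0.014 for Bgn, -0.63 to 0.023 for Aspn and -0.23 to 0.049 for Lum. With the replicate block, the aged DH LFC was -0.045 for Bgn, -0.15 for Aspn and -0.041 for Fmod, and edgeR and DESeq2 gave -0.032 and -0.022 for Aspn. None of these was called.

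Counts over all genes moved more. Without a trend in the moderation, DEGs numbered 516 with age in EH rats (921 in the report), 1069 with age in DH rats (1650), 671 in aged DH (1119) and 1 for the difference between the ages. With the replicate block they numbered 1099 with age in DH rats, 987 in adult DH (1934), 653 in aged DH and 1 for the difference between the ages. Leaving out 1 rat gave 594 to 906 with age in EH rats (lowest without adult EH replicate 5, and 599 without aged EH replicate 4), 1069 to 1510 with age in DH rats (lowest without adult DH replicate 1), 678 to 1186 in aged DH (lowest without aged DH replicate 5, and 679 without aged EH replicate 5) and 0 to 5 for the difference between the ages. On whole reads edgeR called 900 genes with age in EH rats, 1664 with age in DH rats, 1936 in adult DH, 1113 in aged DH and 0 for the difference between the ages, and DESeq2 called 1295, 2109, 2243, 1533 and 55. In adult DH, 0 to 2 members were called when 1 rat was left out. The cause of these changes was not tested. The block changed no call of a member. Depth limits Ogn, which could not be tested.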
